A study of Danio rerio with 12 samples.

Results

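Untreated zebrafish larvae at 120 hours post fertilization (hpf) are described here across all counted genes. They are the 3 libraries of the 0 ng/mL group, taken by that label, of 12 libraries in all. The series exposed AB-strain zebrafish to bepridil, a calcium channel blocker formerly used against angina, at 0, 250, 750 or 1295 ng/mL, and the exposed groups are not compared here. All 3 libraries had the AB strain, 0 ng/mL bepridil, an age of 120 hpf and 15 whole larvae pooled per sample in common. The labels give the tissue as embryo although the protocol speaks of larvae, and they name neither a vehicle nor separate clutches. Technical and biological parts of the spread between the 3 libraries therefore cannot be told apart, and each library is already an average over 15 animals.

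At this stage a zebrafish larva has hatched, swims and begins to hunt. Its fast trunk muscle, skin, liver, exocrine pancreas, gut and retina are at work, while lymphocytes, adult blood and germ cells are still few or immature. Whole-larva RNA mixes all of these, so a gene used by a small organ takes a small share of the reads even where its own cells express it strongly.

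Total counts were 16777922, 16028012 and 16512869 in replicates 1, 2 and 3. At least 1 count was found for 23749, 23892 and 23871 of the 25099 listed genes, and 23140 genes had a count in all 3 libraries. Another 567 genes had no count in any of them. Levels are given as CPM (counts divided by the scaled library size, times 1000000), in the order of replicates 1, 2 and 3 where 3 values are given. A longer transcript collects more counts, and no transcript lengths were used, so a CPM is a share of the reads and not a number of molecules. At least 1 CPM in all 3 libraries was reached by 19696 genes, 78.5% of those listed, and their median was 15.9 CPM. A mean of at least 10 CPM was reached by 12527 genes, at least 100 CPM by 1494 and at least 1000 CPM by 107. A count of 0 allows up to 0.182, 0.189 and 0.177 CPM in replicates 1, 2 and 3, and 0.0608 CPM over the 3 together, which covers counting error only.

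Muscle, skin and protein synthesis genes held the top of the list. The muscle actin gene actc1b led with 23615, 17997 and 16145 CPM, a mean of 19252 ± 3889.8 CPM (SD, n = 3), and it was highest in replicate 1. The keratin gene krt4 of the epidermis had 14205, 12811 and 13481 CPM, with the 3 libraries close together. The fast muscle myosin light chain gene mylpfa had 8113, 10759 and 8684 CPM and was highest in replicate 2. These genes illustrate the range of behaviour at the top, where the library with the highest value differed from gene to gene.

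Of the 25 genes with the highest mean CPM, most others belonged to the same few systems. Contraction and its energy supply were represented by tpma (tropomyosin, 7448 ± 657 CPM), atp2a1 (the calcium pump of the sarcoplasmic reticulum, 7432 ± 791 CPM), ckmb and ckma (muscle creatine kinases, 6365 ± 844 CPM and 5345 ± 546 CPM), and pvalb2 and pvalb1 (parvalbumins, which buffer calcium, 5889 ± 775 CPM and 5413 ± 719 CPM). The myosin genes myhz1.1, myhz2 and mylz3 had 5712 ± 226 CPM, 3486 ± 456 CPM and 4668 ± 332 CPM, and the skeletal actin gene acta1b had 3826 ± 218 CPM. Skin keratins krtt1c19e and krt5 had 4573 ± 376 CPM and 4181 ± 795 CPM, and the collagen gene col1a1a had 3795 ± 388 CPM. Lipid transport was represented by apobb.1, apoa1b and apoa1a, apolipoprotein genes with 4981 ± 445 CPM, 3958 ± 620.1 CPM and 3644 ± 376 CPM.

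General cell functions filled the other places among those 25. The chaperone gene hspa8 had 5906 ± 377 CPM, and slc25a5, which exchanges ADP and ATP across the inner mitochondrial membrane, had 4801 ± 292 CPM. The elongation factor gene eef1a1l1 had 9987, 7660.0 and 7739.6 CPM, and eef2b, another elongation factor, had 5565, 3457 and 3429 CPM. Both had their highest value in replicate 1. The cytoplasmic actin gene actb2 had 6284, 3769.7 and 4126 CPM and actb1 had 4086, 3669 and 3578 CPM, so actb2, often used as a reference gene, was 1.67-fold higher in its highest library than in its lowest, and actb1 1.14-fold. Actins, myosins, keratins and apolipoproteins have near-identical copies. Reads could be split between these or left uncounted, so single values of these genes are uncertain.

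**Figure D1:**
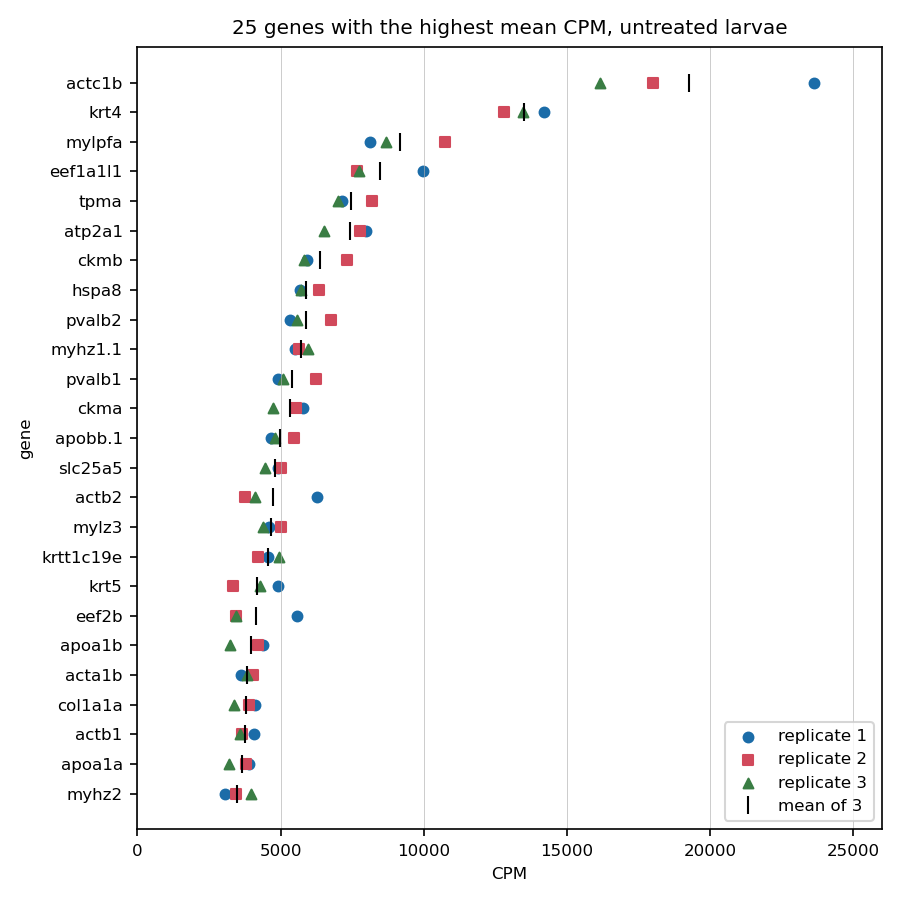
CPM (linear axis) of the 25 genes with the highest mean, with a symbol for each of the 3 untreated libraries and a bar for their mean. actc1b reached 23615 CPM in replicate 1, and actb2, krt5 and eef2b had replicate 1 furthest to the right.

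The counts were spread over many genes. The single most abundant gene held 1.92% ± 0.352 of all counts (SD, n = 3), the 10 most abundant 8.97% ± 0.420, the 100 most abundant 27.6% ± 0.710 and the 1000 most abundant 54.9% ± 0.950. As few as 698 genes together held as many counts as all the others.

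The 3 libraries differed by more than counting error. The chi-square of the counts over its degrees of freedom, which is near 1 for repeats of the same library, was 16.1 between replicates 1 and 2, 10.4 between 1 and 3 and 8.49 between 2 and 3, so none was a repeat of another. Across 12527 genes with a mean of at least 10 CPM, Pearson's r of log2 CPM was 0.975, 0.984 and 0.986 for these pairs. This r is taken across genes in 3 whole-larva libraries of the same strain and age, so it describes them and is no independent replication. Replicates 1 and 2 were least alike, with 790 genes past 1.5-fold and 130 past 2-fold, against 361 and 33 between 1 and 3 and 316 and 35 between 2 and 3.

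Spread depended on level up to about 50 CPM. The median coefficient of variation (CV) between the libraries was 14.7% for genes of 1 to 10 CPM. The CV expected from counting error alone, given the mean count of each gene, had a median of 11.7% there. This expected value is set beside the observed CV and is not a share of it. The observed median was 8.93% from 10 to 50 CPM (counting 5.33%), 7.99% from 50 to 100 CPM (3.04%), 8.06% from 100 to 1000 CPM (1.91%) and 8.76% at 1000 CPM or more (0.625%). Above 50 CPM the CV stayed near the same size while counting error went on shrinking. The common dispersion estimated by edgeR over 20497 genes was 0.0153, a CV of 12.4% beyond counting error. The median of the gene-wise estimates of DESeq2 over the same genes gave a CV of 6.76%, which is a median over genes and not a value fitted to all of them.

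**Figure D2:**
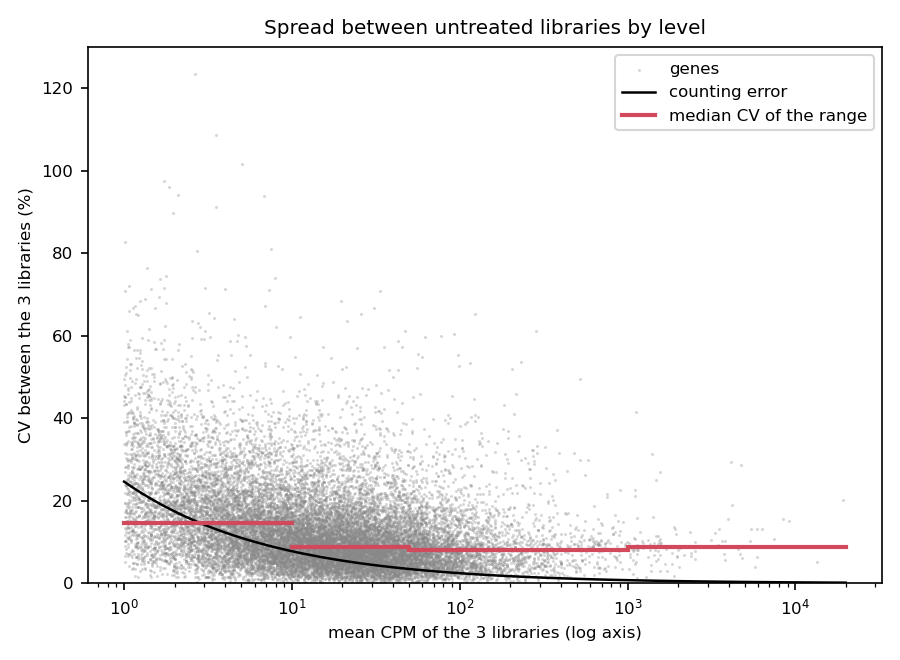
CV between the 3 untreated libraries (percent) against mean CPM (log axis), 1 point per gene with a mean of at least 1 CPM, with the median CV of each range in red and the CV from counting error in black. The red medians level off at 7.99% to 8.76% from 50 CPM up, where the black line keeps falling.

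The highest of the 3 values was at least 1.5 times the lowest in 1054 of the 12527 genes with a mean of at least 10 CPM (8.41%), and at least 2 times the lowest in 159 (1.27%). Among all 12527, the highest value was in replicate 1 for 41.2%, in replicate 2 for 33.7% and in replicate 3 for 25.1%. The lowest was in replicate 1 for 32.8%, in replicate 2 for 37.3% and in replicate 3 for 29.9%. Counts of list members below are set beside these shares, cover members with a mean of at least 10 CPM, and were not tested, because 3 libraries of 1 group hold no contrast. Where a list differs between libraries, fewer cells of a type and less RNA per cell cannot be told apart in whole-larva RNA.

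Lists of genes that mark 37 tissues or cell types were then summed in each library, and all 37 had counts in all 3 libraries. The sums were largest for fast skeletal muscle and smallest for germ cells. They depend on how many genes a list holds and how long these are, so each is best read across libraries. The highest sum was under 1.1 times the lowest for 9 of the 37 lists. It was at least 1.5 times the lowest for 3, which were exocrine pancreas, photoreceptors and pituitary. Of these, the pituitary was nearest that limit, at 1.54-fold.

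**Figure D3:**
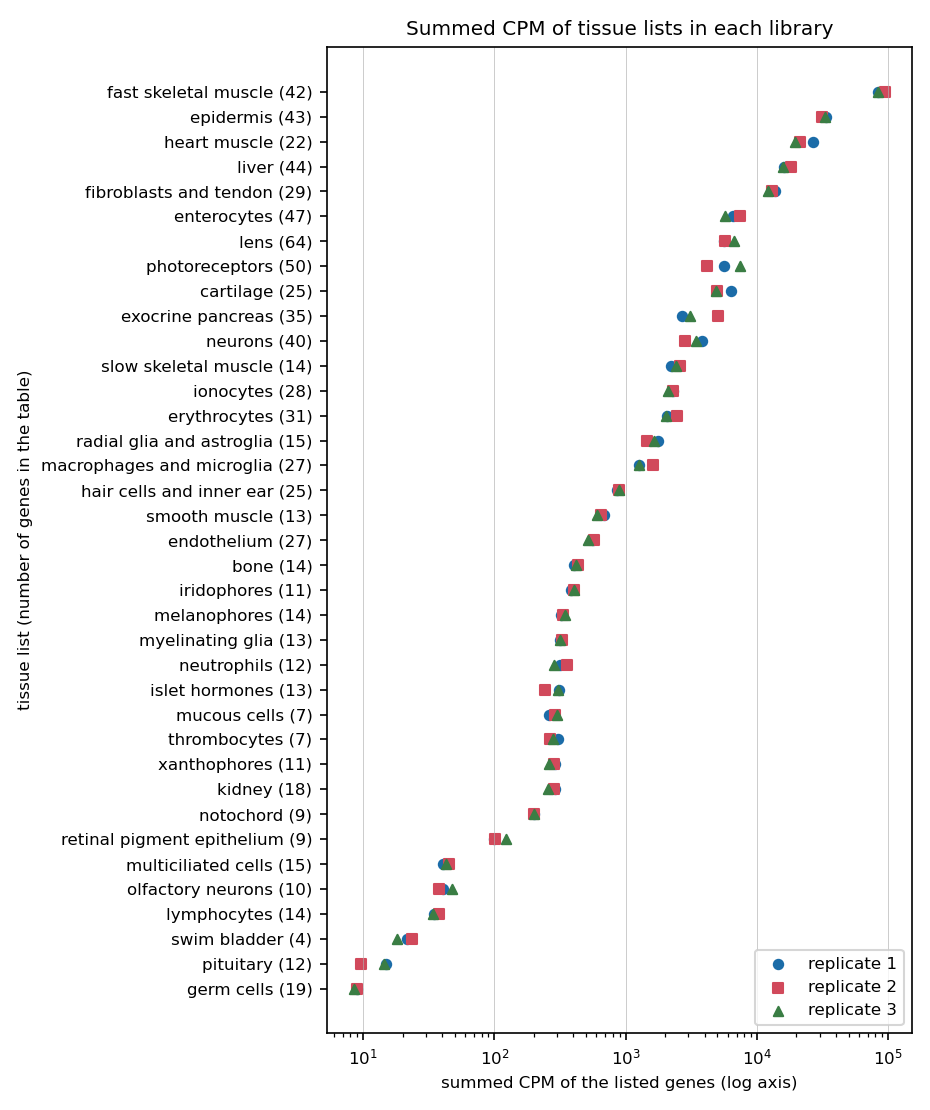
Summed CPM (log axis) of the genes in each of 37 tissue lists, with a symbol for each of the 3 untreated libraries and the number of genes found in the table in brackets. The symbols overlap for most lists and are visibly apart for exocrine pancreas (replicate 2 to the right), photoreceptors (replicate 3 to the right) and pituitary (replicate 2 to the left).

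Fast skeletal muscle, the tissue of sprints and escape turns, gave 83339.9, 95279.5 and 83035 CPM over 42 genes, or 8.72% of all counts. Of its 41 members with at least 10 CPM, 33 were highest in replicate 2, against 33.7% of all genes at this level. Past 1.5-fold was 1 member, 2.44% against 8.41% of all genes at this level. Replicate 2 was thus higher in most of the list, but by little. The list ran from mylpfa at the top to tnni2a.3, a fast troponin I gene, with 7.18 ± 0.362 CPM. The cytoskeletal giants of the sarcomere were also well counted, with neb (nebulin) at 1373 ± 42.8 CPM, and ttn.1 and ttn.2 (titins) at 2354 ± 294 CPM and 2042 ± 175 CPM.

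Slow skeletal muscle, used for sustained swimming, gave 2233, 2612 and 2415 CPM over 14 genes. Its leading gene was smyhc1, a slow myosin heavy chain, with 703, 812 and 854 CPM. The next were tpm2, a tropomyosin, with 488, 594 and 498 CPM, and the myosin light chain gene myl10 with 437, 558 and 461 CPM. All 13 members with at least 10 CPM lay within 1.5-fold, which 8.41% of all genes at this level passed. In a list this short that is near the share of all genes. Highest in replicate 2 were 9 of the 13, against 33.7% of all genes at this level.

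Heart muscle gave 26714, 21119 and 19466 CPM over 22 genes, but 85.8% of that sum was actc1b, which skeletal muscle also expresses. Without actc1b the highest sum was 1.07 times the lowest. Most of the mean of 3180 CPM that remained was ttn.2 (2042 CPM), the titin gene named above with fast skeletal muscle. This range therefore says little of genes particular to the heart. Genes more particular to the heart were counted at lower levels. The ventricular myosin gene vmhc had 108, 99.6 and 106 CPM, the light chain gene myl7 had 22.7, 28.1 and 23.1 CPM, the atrial myosin gene myh6 had 8.73, 9.21 and 7.72 CPM and nppa, which encodes a natriuretic peptide, had 9.82, 15.9 and 11.3 CPM. The cardiac transcription factor gene nkx2.5 had 1.03, 1.198 and 0.942 CPM, close to 1 CPM. Smooth muscle gave 683, 653 and 604 CPM, led by acta2 (smooth muscle actin, 208 ± 24.6 CPM), myl9b (112 ± 13.5 CPM) and myh11a (smooth muscle myosin, 105 ± 16.3 CPM).

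Sums of the skin lists had ranges of 1.07-fold (epidermis), 1.16-fold (mucous cells) and 1.11-fold (ionocytes). The epidermis list gave 33728, 31585 and 32952 CPM over 43 genes. Of its 37 members with at least 10 CPM, 0 passed 1.5-fold, against 8.41% of all genes at this level. The sum was lowest in replicate 2, although 24 of these 37 were highest there and 9 lowest. The shares of all genes were 33.7% and 37.3%. The gene krt4 made up 41.2% of the sum. Within the list krt5, another keratin gene, had 4917, 3337 and 4289 CPM, while epcam, an adhesion gene of epithelia, had 414, 409.6 and 394 CPM. Mucous cells gave 261, 289 and 302 CPM, led by the mucin gene muc5.1 with 149, 183 and 181 CPM and by agr2, which helps to fold mucins, with 76.1, 67.0 and 80.3 CPM. Ionocytes, the skin cells that exchange ions with the water, gave 2316, 2283 and 2089 CPM. The list was led by sodium pump subunits, with atp1a1a.1 (479 ± 54.6 CPM) making up 21.5% of the sum. Next were atp1a1a.4 (306 ± 51.0 CPM) and atp1a1a.2 (198 ± 13.9 CPM). The calcium channel gene trpv6 had 20.7, 21.2 and 19.4 CPM and foxi3b, a regulator of ionocyte identity, had 24.1, 21.8 and 22.2 CPM.

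Connective tissue gave 13782, 13069 and 12164 CPM over 29 genes, led by col1a1a, by sparc, a matrix-binding protein, with 1513, 1608 and 1553 CPM, and by col1a1b with 1894, 1247 and 1268 CPM. The sum was highest in replicate 1, but most members were not. Of 25 members with at least 10 CPM, 5 were highest in replicate 1, 16 in replicate 2 and 4 in replicate 3. The shares of all genes were 41.2%, 33.7% and 25.1%. Cartilage gave 6352, 4926 and 4924 CPM over 25 genes. Highest in replicate 1 were 17 of its 23 members with at least 10 CPM, against 41.2% of all genes. The collagen gene of cartilage col2a1a had 1911, 1155 and 1147 CPM, and matn1, a cartilage matrilin, had 782, 478 and 484 CPM. Its neighbours in the list did not all follow, since matn4 had 642, 641 and 599 CPM. Of all 46 collagen genes with at least 10 CPM, 19 were highest in replicate 1, 23 in replicate 2 and 4 in replicate 3. The 19 in replicate 1 are near the share of all genes, 41.2%. For replicates 2 and 3 the shares of all genes were 33.7% and 25.1%.

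Bone gave 403, 433 and 421 CPM, of which 66.1% was col10a1a, a collagen of young zebrafish bone, with 259.9, 289 and 281 CPM. Next came alpl, the alkaline phosphatase of mineralization, with 46.1, 49.0 and 52.9 CPM, and phex, an enzyme of phosphate balance, with 38.9, 37.4 and 31.9 CPM. The osteoblast regulator gene sp7 had 7.03, 6.56 and 7.54 CPM, while mgp and bglap, which encode calcium-binding proteins, had means of 0.101 CPM and 0.330 CPM. Notochord gave 199.6, 199 and 201 CPM, a 1.01-fold range. Its leading genes cav1 (89.2 ± 6.94 CPM) and cavin1b (49.7 ± 0.528 CPM) form caveolae and are also used by vessels and muscle. Of its 5 members with at least 10 CPM, 2 passed 1.5-fold, which is 40% against 8.41% of all genes at this level, and 1 of them passed 2-fold. The gene shha, which encodes the signalling protein Sonic hedgehog and is also used outside the notochord, had 14.1, 6.50 and 10.5 CPM. The matrix gene emilin3a had 19.5, 14.5 and 12.4 CPM. Both were highest in replicate 1, so the level sum covered members that differed. The notochord transcription factor gene ta (tbxta) had 1.58, 1.39 and 1.83 CPM.

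Red blood cells gave 2077, 2442 and 2021 CPM over 31 genes. Highest in replicate 2 were 15 of 18 members, against 33.7% of all genes. Larval globins made up most of the sum. The alpha globin gene hbae3 had 787, 937 and 749 CPM, and the beta globin genes hbbe1.1, hbbe1.3 and hbbe2 had 310.1, 227 and 309.7 CPM, 164, 276 and 142 CPM and 102, 131 and 135 CPM. They did not share a highest library. The adult globin genes had few or no counts in each library, with means of 0.183 CPM for hbba2, 0.123 CPM for hbaa1, 0.0420 CPM for ba1 and 0.0202 CPM for hbaa2. Globin copies are nearly identical, so reads could be divided between them or left uncounted. The heme synthesis gene alas2 had 31.2, 41.8 and 21.9 CPM and rhag, an ammonia channel, had 181, 217 and 191 CPM.

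Other blood and vessel lists were smaller. Macrophages and microglia gave 1268, 1606 and 1262 CPM, of which 82.2% was apoeb, a lipid carrier that many cells make, with 1023, 1341 and 1036 CPM. More particular genes were csf1ra, the receptor for a macrophage growth factor, with 24.7, 32.2 and 27.7 CPM, and mpeg1.1, a perforin-like gene of macrophages, with 21.0, 19.2 and 18.1 CPM. Neutrophils gave 318, 357 and 285 CPM, led by s100a10b, which other cells also express, with 132, 159 and 139.5 CPM. The lysozyme gene lyz had 37.3, 31.6 and 25.97 CPM and the myeloperoxidase gene mpx had 30.2, 27.4 and 20.4 CPM, both lowest in replicate 3. Thrombocyte genes gave 306, 266 and 279 CPM, but 81.1% of this was thbs1b, which is not restricted to them. The platelet receptor gene itga2b had 1.09, 1.45 and 1.001 CPM.

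Endothelium gave 567, 576 and 518 CPM over 27 genes, and 0 of its 19 members with at least 10 CPM passed 1.5-fold. Of all genes at this level 8.41% passed it, so 0 of 19 is near that share. The water channel gene aqp1a.1 had 87.4, 92.0 and 80.9 CPM, the growth factor receptor gene kdrl had 82.9, 70.19 and 59.5 CPM and mrc1a, found on lymphatic and venous vessels, had 36.6, 45.4 and 39.3 CPM. Lymphocytes gave 34.9, 38.0 and 34.4 CPM over 14 genes. The leading name, cd3eap, is a subunit of RNA polymerase I and no T-cell receptor part, so it says nothing of lymphocytes. The recombination gene rag1 of immature lymphocytes had 4.37, 4.16 and 3.95 CPM, foxn1, the regulator of thymus epithelium, had 4.18, 4.099 and 4.53 CPM, and cd8a had no count.

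The liver gave 15971, 18226 and 15783 CPM over 44 genes. Highest in replicate 2 were 31 of its 39 members with at least 10 CPM, against 33.7% of all genes. The gene apobb.1 made up 29.9% of the sum. Next were apoa2, an apolipoprotein, with 2346, 2822 and 2438 CPM, and rbp4, the carrier of retinol, with 1948, 2105 and 2059.8 CPM. The liver fatty acid binding gene fabp10a had 96.3, 148 and 104 CPM, transferrin (tfa) 1795, 2214 and 1835 CPM and the fibrinogen gene fgb 200.4, 243 and 192 CPM. Replicate 2 was highest for apoa2, rbp4, fabp10a, tfa and fgb. The fetuin gene fetub had 544, 328 and 275 CPM, highest in replicate 1. Enzymes of bile acid synthesis were counted too, with cyp7a1, the rate-limiting step, at 36.4, 44.8 and 33.0 CPM.

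The exocrine pancreas, which makes digestive enzymes, differed most of all tissue lists, with 2669, 5050.1 and 3115 CPM over 35 genes and a 1.89-fold range. All 22 of its members with at least 10 CPM were highest in replicate 2, and 19 were lowest in replicate 1. The shares of all genes were 33.7% and 32.8%. Of the 22 members, 20 passed 1.5-fold (90.9%, against 8.41% of all genes at this level) and 9 passed 2-fold. Without replicate 2 the range of the sum was 1.17-fold, and without replicate 1 it was 1.63-fold, so the difference lay mainly between replicate 2 and the other libraries.

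Genes for proteases, amylase and lipase had the same highest library. Among proteases, the chymotrypsinogen gene ctrb1 had 359, 573 and 376 CPM, the trypsin gene try had 242, 442 and 278 CPM and the elastase gene ela2l had 115, 323 and 177 CPM. The related protease gene zgc:136461 had 67.0, 216 and 88.1 CPM, and the elastase gene zgc:92041 had 270.3, 338 and 273 CPM, a narrower range with the same highest library. The carboxypeptidase genes cpa5 and cpa4 had 220.3, 374 and 223 CPM and 63.2, 159.7 and 75.9 CPM, so cpa4 in replicate 2 exceeded the sum of its values in the other libraries. Starch and lipid digestion followed, with amy2a (amylase) at 65.8, 159.9 and 67.0 CPM and cel.1 (a bile salt lipase) at 58.3, 87.5 and 58.3 CPM. Regulators of the same cells were at low levels. The gene ptf1a, a master regulator of acinar cells, had 3.33, 3.09 and 3.71 CPM, and its cofactor gene rbpjl had 1.33, 2.59 and 1.71 CPM. Several of these proteases are tandem copies, and reads could be divided between them or left uncounted.

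Enterocytes gave 6561, 7401 and 5758 CPM over 47 genes, with a 1.28-fold range that was 1.42-fold without apoa1a, which the liver also makes. Of 34 members with at least 10 CPM, 25 were highest in replicate 2 and 22 were lowest in replicate 3. The shares of all genes were 33.7% and 29.9%. The members past 1.5-fold were 16, 47.1% against 8.41% of all genes at this level. The intestinal fatty acid binding gene fabp2 had 277, 431 and 269 CPM, the apolipoprotein genes apoa4b.1 and apoa4b.2 had 494, 606 and 499 CPM and 303, 441 and 319.6 CPM, and chia.2, a chitinase, had 172, 376 and 149 CPM. Replicate 2 was highest in each. The order was not general in the gut, since cubn, a receptor for protein uptake in the hindgut and kidney, had 31.8, 16.1 and 15.5 CPM, highest in replicate 1. The brush border gene vil1 had 141, 129.7 and 102 CPM, also highest in replicate 1.

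Endocrine islet genes gave 313, 245 and 307 CPM, but neurod1, which neurons also express, made up 54.6% of that. The hormone genes themselves were low, with ins (insulin) at 19.8, 21.8 and 16.4 CPM, sst1.1 (somatostatin) at 9.88, 11.9 and 9.60 CPM and gcga (glucagon) at 10.4, 9.59 and 10.25 CPM. The pancreatic transcription factor gene pdx1 had 3.21, 3.09 and 2.53 CPM. The highest of the 3 insulin values was in replicate 2, as in the exocrine list, while glucagon was highest in replicate 1.

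**Figure D4:**
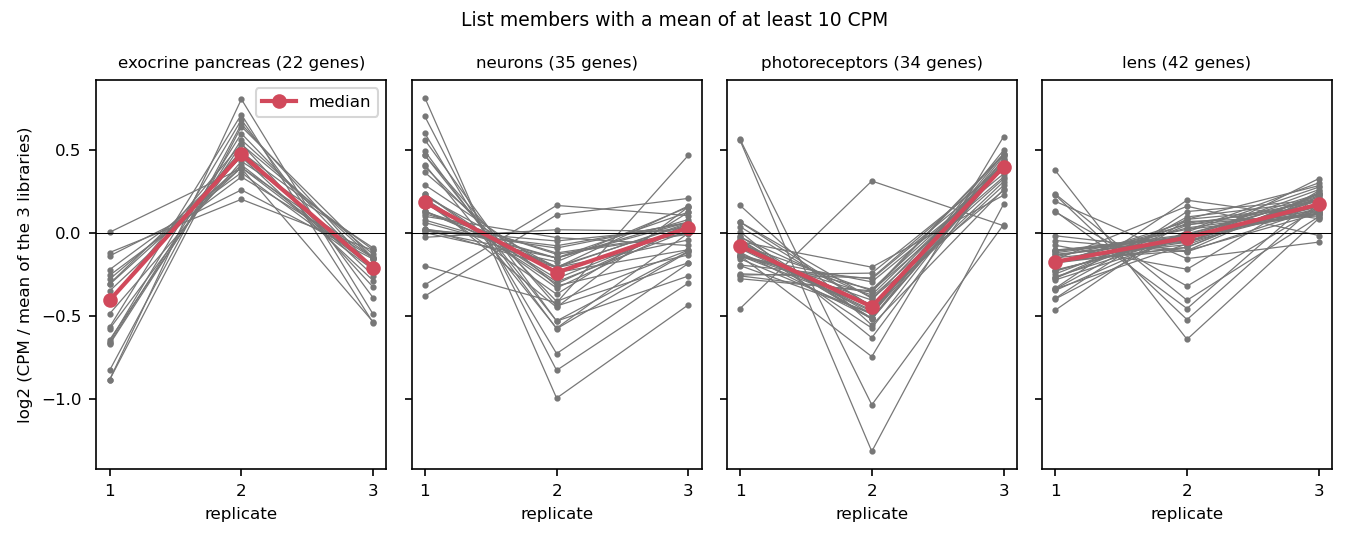
CPM of each list member relative to its mean over the 3 untreated libraries (log2 scale), for members with a mean of at least 10 CPM in 4 lists, with lines joining the values of the same gene and the median in red. Exocrine pancreas genes (22 of 22) peaked in replicate 2, photoreceptor genes were mostly highest in replicate 3 (31 of 34) and lowest in replicate 2 (32 of 34), and 31 of 35 neuron genes were lowest in replicate 2. Of all genes at this level, 33.7% were highest in replicate 2, 25.1% highest in replicate 3 and 37.3% lowest in replicate 2.

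Replicate 2, highest for the pancreas list, was lowest for neurons. The neuron list gave 3852, 2851 and 3431 CPM over 40 genes. Of 35 members with at least 10 CPM, 24 were highest in replicate 1, against 41.2% of all genes. Lowest in replicate 2 were 31 of the 35, against 37.3%. The RNA-binding gene elavl3, which marks most neurons, had 306, 212 and 262 CPM. The vesicle fusion gene snap25a had 249.6, 238 and 252 CPM and the calcium sensor gene syt1a had 269, 194 and 241 CPM. Thus snap25a was nearly level while elavl3 and syt1a were lowest in replicate 2.

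Some members of the neuron list that serve axon growth and vesicle release had wide ranges. The tubulin-binding gene stmn2b had 54.4, 15.5 and 22.9 CPM, whereas its close relative stmn2a had 218, 225 and 223 CPM. The vesicle gene syn1 (synapsin) had 91.5, 31.7 and 45.6 CPM, and gap43, found in growing axons, had 86.5, 46.1 and 55.2 CPM. All but stmn2a were highest in replicate 1. Transmitter genes were mixed. The enzyme genes for GABA, gad2 and gad1b, had 159, 141 and 177 CPM and 117, 100.1 and 116 CPM, and the glycine transporter gene slc6a5 had 55.7, 52.2 and 57.4 CPM. The vesicular GABA transporter gene slc32a1 had 57.1, 22.7 and 33.1 CPM, with replicate 1 highest. Acetylcholine synthesis (chata) had 25.6, 36.0 and 38.6 CPM, and the dopamine and serotonin enzyme genes th and tph2 had 8.67, 5.36 and 7.01 CPM and 5.76, 6.94 and 7.30 CPM.

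Glia were counted as well. Radial glia and astroglia gave 1776, 1448 and 1631 CPM, led by fabp7a, a fatty acid binding gene, with 329, 318 and 356 CPM, and by glulb, a glutamine synthetase, with 296, 344 and 313 CPM. The glutamate transporter gene slc1a2b had 478, 144 and 229 CPM, a 3.31-fold range with replicate 1 highest, while its relatives slc1a3a and slc1a3b had 45.4, 44.5 and 42.5 CPM and 58.1, 38.0 and 45.9 CPM. The drop of slc1a2b from replicate 1 to 2 was at least as large as that of the list sum. Of 12 members with at least 10 CPM, 5 were highest in replicate 1, 1 in replicate 2 and 6 in replicate 3. The shares of all genes were 41.2%, 33.7% and 25.1%. Myelinating glia gave 317, 329.5 and 315 CPM and were close together, led by mbpb and mbpa, myelin basic proteins, with 103, 112 and 106 CPM and 48.1, 56.4 and 54.4 CPM, and by mag, a myelin adhesion gene, with 30.01, 31.5 and 33.6 CPM.

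Photoreceptors gave 5599, 4176 and 7387 CPM over 50 genes, a 1.77-fold range. Of 34 members with at least 10 CPM, 31 were highest in replicate 3 and 32 were lowest in replicate 2. The shares of all genes were 25.1% and 37.3%. Past 1.5-fold were 33 of the 34, which is 97.1% against 8.41% of all genes at this level. The range was 1.32-fold without replicate 2 and 1.34-fold without replicate 3, so both ends contributed.

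Cone opsins are the light-sensing proteins of colour vision. The ultraviolet opsin gene opn1sw1 had 1413, 1231 and 2036 CPM, the blue opsin gene opn1sw2 had 323, 266 and 429 CPM, the green opsin gene opn1mw1 had 477, 395 and 698 CPM and the red opsin gene opn1lw2 had 467, 337 and 641 CPM. In all 4, replicate 3 was highest and replicate 2 lowest. The remaining cone opsin genes were low, with opn1mw2 at 11.6, 19.7 and 16.4 CPM, opn1lw1 at a mean of 1.38 CPM, opn1mw3 at 0.201 CPM, and opn1mw4 without a count. Green and red opsins lie in tandem arrays of similar genes, so reads could be divided between copies or left uncounted.

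Genes for the steps after the opsin in cones had the same order. The cone transducin gene gnat2 had 264, 205 and 364 CPM, the cone phosphodiesterase gene pde6c had 137, 104 and 204 CPM and the cone arrestin gene arr3a had 263, 195 and 362 CPM. Rods were less uniform. The rod opsin gene rho had 769.8, 254 and 539 CPM, with replicate 1 highest and a 3.03-fold range, whereas the rod transducin gene gnat1 had 82.3, 74.0 and 116 CPM and rod phosphodiesterase pde6b had 17.9, 16.8 and 29.7 CPM, with replicate 3 highest. The transcription factor gene crx, which switches on photoreceptor genes, resembled rho in its order, with 25.2, 6.87 and 19.3 CPM.

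Other eye lists shared part of the pattern. Transcription factors of the eye gave 197, 146 and 229 CPM, a 1.56-fold range. All 6 members with at least 10 CPM were lowest in replicate 2, against 37.3% of all genes. They were led by pax6a with 68.1, 58.3 and 83.2 CPM, neurod4 with 35.04, 25.3 and 39.3 CPM and vsx1, a bipolar cell regulator, with 34.3, 23.6 and 38.9 CPM. The retinal pigment epithelium gave 100.2, 101 and 122 CPM, with rpe65a, the enzyme that regenerates visual pigment, at 9.15, 7.19 and 15.3 CPM. The retinoid uptake gene stra6 had 30.7, 32.9 and 31.6 CPM, nearly level.

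The lens gave 5651, 5713 and 6704 CPM over 64 genes. Of 42 members with at least 10 CPM, 36 were highest in replicate 3, against 25.1% of all genes. Lowest in replicate 1 were 33 of the 42, against 32.8%. Gamma crystallins, the structural proteins of the fish lens, were the most numerous members of the list. Among them were crygn2 at 488, 524 and 579 CPM and crygm2d13 at 192, 206 and 236 CPM. The beta crystallin gene cryba4 had 447, 461 and 532 CPM, while crybb1l1 and crybb1 departed from it with 419, 249 and 405 CPM and 374, 185 and 306 CPM, both lowest in replicate 2. The alpha crystallin gene cryaa had 17.2, 20.1 and 23.2 CPM, and crygm1, crygm7 and crygs2 had no count. Crystallin genes are highly similar, and how reads matching several copies were counted was not given. Such reads could be divided between copies or left uncounted, so single values and the sum are both uncertain.

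Hearing and balance organs were steady. Hair cells and the inner ear gave 867, 894 and 885 CPM, a 1.03-fold range, led by stm, which shapes the otoliths, with 227, 247 and 249 CPM, and by the calcium buffers pvalb8 and pvalb9 with 224, 251 and 244 CPM and 98.2, 94.9 and 90.3 CPM. All 10 members with at least 10 CPM lay within 1.5-fold, which 8.41% of all genes at this level passed. In so short a list that is near the share of all genes. Olfactory neurons gave 41.0, 37.8 and 47.6 CPM, with the G protein gene gnal at 11.6, 9.27 and 13.5 CPM and ompa, a marker of mature olfactory neurons, at 7.09, 6.50 and 8.78 CPM.

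Sums of the pigment cell lists had ranges of 1.07-fold (melanophores), 1.06-fold (iridophores) and 1.11-fold (xanthophores). Melanophores gave 323, 334 and 347 CPM, led by pmela, which builds the melanosome, with 80.6, 79.3 and 83.2 CPM, and tyrp1b, an enzyme of melanin synthesis, with 67.5, 68.0 and 70.6 CPM. Iridophores gave 383, 404 and 402 CPM, led by gpnmb, a melanosome-related gene that macrophages also express, with 132, 139.9 and 149 CPM, and had pnp4a, an enzyme of the purine pathway behind their silver colour, at 21.0, 25.2 and 24.6 CPM. Xanthophores gave 290.4, 284 and 260.5 CPM, with gch2, an enzyme of the yellow pteridine pigment, at 77.6, 56.1 and 58.1 CPM, highest in replicate 1. Melanophores, iridophores and xanthophores had 8, 8 and 10 members with at least 10 CPM. Among these only akr1b1, of the xanthophore list, passed 1.5-fold, with 29.6, 47.2 and 31.8 CPM. Of all genes at this level 8.41% passed 1.5-fold, and in lists this short the result is near that share.

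Kidney genes gave 288, 286 and 258 CPM, led by podxl, a surface protein of podocytes and vessels, with 93.3, 106 and 94.8 CPM, and by trpm7, which many cells use, with 36.1, 37.0 and 38.5 CPM. The organic anion transporter gene slc22a6l of the tubule had 28.9, 20.8 and 16.6 CPM, highest in replicate 1. Multiciliated cells gave 41.0, 44.8 and 42.9 CPM, with their regulators foxj1b and foxj1a at 4.67, 6.12 and 6.07 CPM and 6.002, 4.60 and 4.83 CPM. The swim bladder gave 21.8, 23.7 and 18.02 CPM over 4 genes, with the surfactant genes sftpbb and sftpba at 6.61, 8.83 and 6.30 CPM and 7.09, 6.43 and 4.299 CPM.

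The lowest sums came from the pituitary and germ line. Pituitary hormones gave 15.0, 9.71 and 14.4 CPM, a 1.54-fold range, with growth hormone (gh1) at 5.03, 3.91 and 5.07 CPM, pomca, the precursor of the pituitary hormone that drives cortisol release, at 4.305, 2.84 and 3.00 CPM, and prolactin (prl) at 2.55, 0.505 and 2.18 CPM. With values this low, the part of counting error in that range was not tested. Germ cells gave 9.03, 9.02 and 8.48 CPM over 19 genes, with tdrd6 at 2.91, 2.08 and 3.00 CPM, ddx4 (vasa) at 1.46, 1.77 and 1.59 CPM and piwil1 at 1.39, 1.64 and 1.35 CPM, all parts of germ granules or the pathway that silences transposons. The egg coat genes zp2.1, zp2.3 and zp2.5 had no count. The vitellogenin gene vtg7, which in adult females supplies yolk, had 10.9, 8.32 and 6.77 CPM, and the other 6 vitellogenin genes averaged below 1 CPM each.

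Of 8 lists of processes, eye transcription factors and yolk precursors are given above. Cell proliferation gave 2339, 2291 and 2177 CPM, with pcna, the sliding clamp of DNA replication, at 345, 385 and 347 CPM, mki67, a marker of cycling cells, at 275, 314 and 309.7 CPM and rrm1, a subunit of ribonucleotide reductase, at 180.4, 175 and 168 CPM. Its partner rrm2 had 60.0, 36.5 and 24.6 CPM, the 1 member of 29 past 2-fold. The circadian clock list gave 2043, 2115 and 2295 CPM, led by the cryptochrome genes cry1ba with 666, 732 and 805 CPM and cry1bb with 151, 147 and 151 CPM and by nfil3-5, a repressor, with 264, 242 and 289 CPM. The clock-linked repressors nr1d2a and nfil3-6 had the widest ranges there, with 64.0, 141 and 97.2 CPM and 13.04, 35.1 and 25.3 CPM, both lowest in replicate 1.

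Immediate early genes, which respond to stimulation within minutes, gave 2013, 1432 and 1485 CPM. Highest in replicate 1 were 17 of 19 members with at least 10 CPM, against 41.2% of all genes. The transcription factor gene fosab had 378, 232 and 294 CPM, egr1 had 185, 85.6 and 96.2 CPM and the growth-arrest gene btg2 had 305, 225 and 225 CPM. The phosphatase gene dusp1, of the same response, was level with 162, 158 and 171 CPM. The glucocorticoid list gave 1054, 1313 and 1037 CPM, with 10 of 15 highest in replicate 2, against 33.7% of all genes. Besides target genes the list holds receptor and steroid enzyme genes such as nr3c1 and hsd11b2, so its sum does not stand for targets alone. The receptor co-chaperone gene fkbp5 had 69.7, 185 and 90.4 CPM and pck1, an enzyme of glucose production, had 106, 191 and 110.1 CPM, while the receptor gene nr3c1 itself had 85.7, 76.8 and 80.2 CPM.

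Chaperones gave 11567, 11354 and 10753 CPM, led by hspa8 and by hsp90ab1 with 3529.7, 2993 and 2925 CPM and hsp90b1, the form of the endoplasmic reticulum, with 505, 362 and 421 CPM. The small heat shock protein genes hspb9 and hspb11 had 40.3, 73.3 and 22.1 CPM and 32.1, 50.3 and 19.3 CPM, both highest in replicate 2 and lowest in replicate 3. Xenobiotic metabolism gave 2326, 2688 and 2278 CPM. Highest in replicate 2 were 33 of its 44 members with at least 10 CPM, against 33.7% of all genes. Its leading genes were gstp1, a glutathione transferase, with 447, 477 and 401 CPM, the transporter gene abcb5 with 178, 186 and 195 CPM and nqo1, a quinone reductase, with 139, 165 and 138 CPM. The cytochrome P450 gene cyp3a65 of liver and gut had 41.1, 66.9 and 38.4 CPM.

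Sums of the ribosomal protein, respiratory chain, proteasome and translation factor genes ranged from 1.08-fold (proteasome) to 1.24-fold (translation factors) between the libraries. Ribosomal protein genes gave 69181, 78094 and 67422 CPM over 80 genes, 7.16% of all counts. Highest in replicate 2 were 76 of 79, against 33.7% of all genes at this level. Of the 79, 0 passed 1.5-fold, against 8.41% of all genes at this level. Nuclear genes of the respiratory chain gave 16102, 16999 and 15367 CPM. Highest in replicate 2 were 70 of 81, against 33.7% of all genes, and 0 passed 1.5-fold, against 8.41%. Proteasome genes gave 3584, 3564 and 3309.7 CPM, with 25 of 37 lowest in replicate 3, against 29.9% of all genes. Translation factors gave 27749, 23298 and 22312 CPM, and actins gave 39181, 30984 and 29074 CPM, both highest in replicate 1 and led by eef1a1l1 and actc1b.

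**Figure D5:**
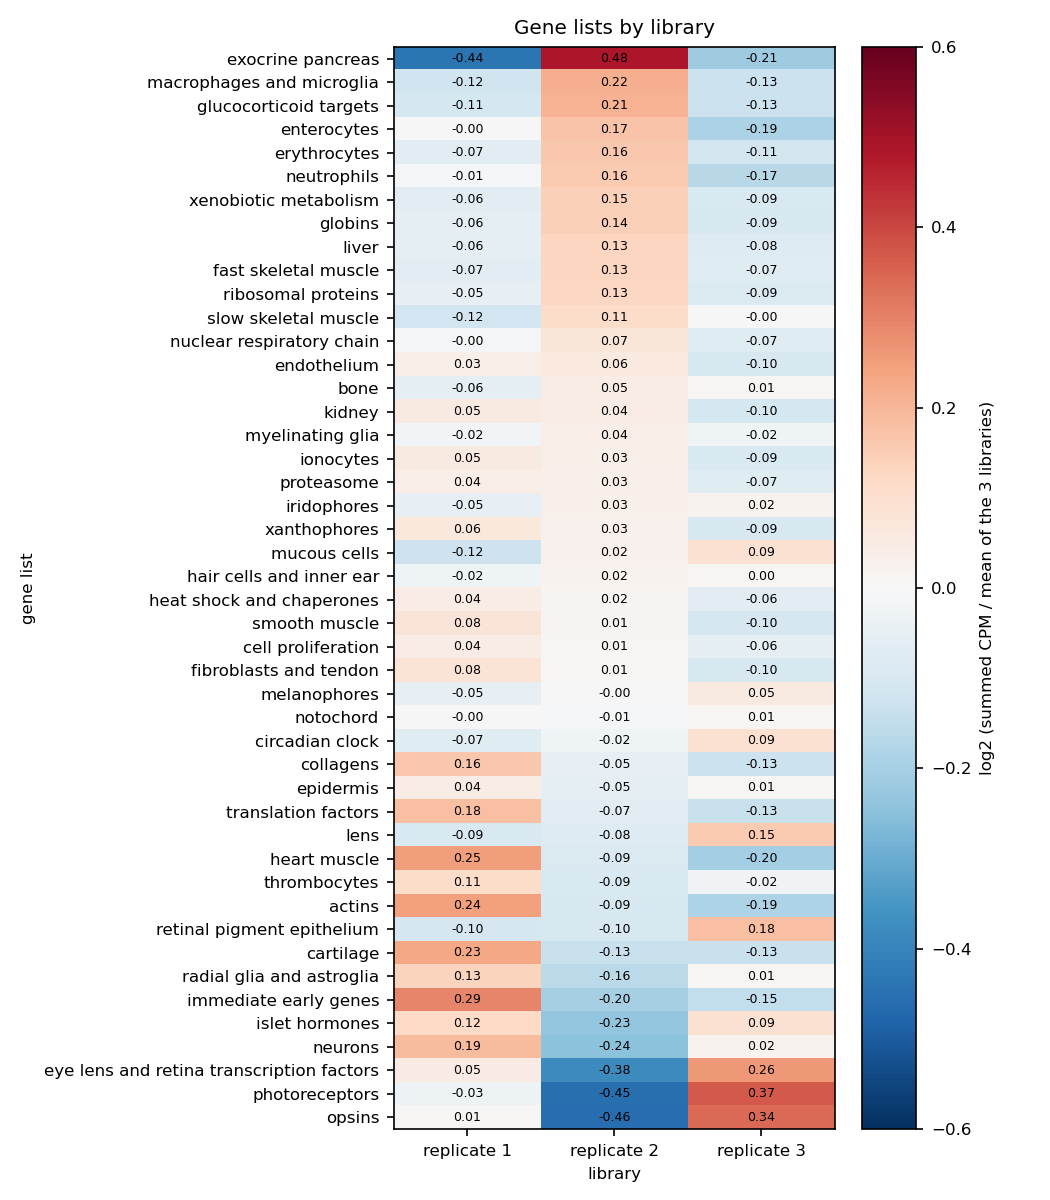
Summed CPM of each list in each untreated library relative to its mean over the 3 (log2 scale, in numbers and colour), for lists and gene families with a mean sum of at least 100 CPM, ordered by replicate 2. Exocrine pancreas is at the top with 0.48 in replicate 2, and opsins and photoreceptors are at the bottom with -0.46 and -0.45.

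Of the 159 genes past 2-fold, replicate 1 held the highest value in 99 and replicate 2 the lowest in 113. Among all 12527 genes, 41.2% were highest in replicate 1 and 37.3% lowest in replicate 2. Members of the lists made up 42 of the 159. They included 9 of 22 from the exocrine pancreas, 5 of 35 from neurons and 5 of 34 from photoreceptors. Enterocytes gave 4 of 34, immediate early genes 4 of 19 and any other list at most 2. Of all genes with a mean of at least 10 CPM, 1.27% passed 2-fold. The rest of the 159 lay outside the lists, which hold only part of the 12527 genes at this level. Without replicate 1 the count of genes past 2-fold was 36 and without replicate 2 it was 37, and without replicate 3 it was 134.

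The widest range belonged to si:ch211-281l24.3, a gene known here only by its clone name, with 14.3, 68.0 and 60.07 CPM, low in replicate 1 alone. Next came tcap, which encodes the titin cap of the sarcomere, with 27.5, 60.102 and 13.5 CPM, highest in replicate 2. Nervous system regulators followed, with tfap2e, a transcription factor, at 19.3, 5.23 and 9.13 CPM, and otpa, a homeobox gene of hypothalamic neurons, at 45.1, 13.3 and 19.2 CPM. Both were highest in replicate 1 and lowest in replicate 2. The growth cone gene basp1 had 156, 50.01 and 71.5 CPM and insm1b, a regulator of neuroendocrine cells, had 35.3, 12.2 and 11.7 CPM, again highest in replicate 1. The secretory pathway gene tfg had 131, 48.0 and 53.1 CPM and tox, a DNA-binding regulator, had 105, 37.4 and 44.6 CPM, highest in replicate 1 and lowest in replicate 2.

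Fewer genes stood apart in replicate 3. The gene furthest above the other libraries was zgc:111983 with 16.2, 10.9 and 36.5 CPM, followed by LOC101882272 with 9.22, 8.89 and 19.6 CPM, neither with a curated name in the table, and by gngt2a, a cone transducin subunit, with 25.1, 16.5 and 41.3 CPM. The furthest below were tcap and hspb9, given above. In replicate 1, LOC110438318 had 599, 1487 and 1295 CPM, low against both other libraries at a high count.

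At the other end, some genes with at least 100 CPM were level to within 1% in CV. The most even was tmem63ba, a membrane channel gene, with 103, 103 and 102 CPM (CV 0.173%). Next were hmgb2a, a chromatin protein, with 380.0, 379 and 380.2 CPM (CV 0.183%), ppp2r1ba, a scaffold of protein phosphatase 2A, with 245, 245 and 244 CPM, and lmnb1, a nuclear lamin, with 128, 128 and 128 CPM. The rest of the 10 most even were psmd12, a proteasome subunit, setb, a histone chaperone, calm2a, a calmodulin, rbmx and hnrpl, RNA-binding proteins, and zgc:101846, with CVs of 0.363% to 0.742%. The CV expected from counting error alone had a median of 1.91% at 100 to 1000 CPM. CVs this small therefore do not rank these genes against each other.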

How the data were processed

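Whole-larva mRNA was sequenced in 12 libraries, of which the 3 labelled 0 ng/mL were used. A strand-specific mRNA kit was used on RNA from RNAiso Plus, per the labels' protocols. The tools named are Trimmomatic, HISAT2 and HTSeq, on build GRCz11, per the submitters' processing notes. Versions, annotation and whether HTSeq counted by strand were not given in the sources used here, so overlapping and antisense genes may share reads. The deposited values are raw counts per gene, whole numbers with a different total in each library. In 10 rows a spreadsheet had turned the gene name into a date, and these were left as they are.

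Libraries were scaled in R 4.3.3 with TMM factors of edgeR 4.0.16 (0.983, 0.989 and 1.03 for replicates 1, 2 and 3), and CPM were computed for all genes. The common dispersion was estimated without covariates over genes kept by filterByExpr, with a tool check in DESeq2 1.42.0, and pairwise log2 values used a pseudocount of 0.1 CPM. The spread measures were tried on counts simulated with the same dispersion for all genes. In the data the dispersion differs between genes, so this checked the computation and not how well it suits these data. Total counts of 16028012 to 16777922 make counting error small for well-counted genes and large near 1 CPM. No test was run, since 1 group holds no contrast.

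The gene lists were written from textbook knowledge, and the members and lists were chosen with earlier results of these data known. Gene families taken by symbol were added after the data had been seen. Of the distinct list genes, 1010 matched by symbol, 39 by a synonym in the RefSeq table of assembly GRCz12tu, and 70 did not match. Named genes were the 25 with the highest mean, leading or uncounted members of each list, the 10 most variable, the 10 most even and those that deviated most in 1 library. Other genes named were chosen after their values were seen. Many list genes are expressed in other tissues as well, and some stand in more than 1 list. Lengths and sequences were not used.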

Additional observations from a re-analysis of the deposited data

How the results depend on the processing

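No paired analysis was possible because the values come from 1 group and no test was run. The number of genes detected, 19696, was 19661 to 23140 under the alternatives tried. All lay within the limit of 1.5 times, but its upper end exceeds the number of genes listed and could not be passed. The share of counts in the 100 most abundant genes was 27.3% to 28.0% with 1 library left out. Leaving out 1 of 3 libraries cannot move their mean by 1 SD, so the limit of 1 SD could not test this share. The CV from the common dispersion, 12.4%, was 6.76% with the median gene-wise fit of DESeq2, which is another summary, and 10.5% to 14.6% with 1 library left out. The count of genes past 2-fold, 159, was 694 from a mean of 1 CPM, 38 from 50 CPM, 1054 at 1.5-fold and 14 at 3-fold. It was 36 to 134 with 1 library left out, lowest without replicates 1 (36) and 2 (37), and fewer libraries can only lower a range. Outside the exocrine pancreas, neuron and photoreceptor lists it was 140, an alternative chosen after seeing the data. The number of lists with sums at least 1.5-fold apart, 4, was 4 under RLE and total-count scaling and 3 under upper-quartile scaling, so it depends on the scaling. It was 0 to 3 with 1 library left out (0 without replicate 2, 2 without replicate 3). The mean sums of the 45 lists moved by less than 1 SD between libraries under RLE, upper-quartile and total-count scaling. These scalings hardly change a mean over the 3 libraries, so this could not test the spread between them. With TMM over all 12 libraries 11 moved, and without the leading member 40 moved. Levels per coding length were not run, because no lengths were given. Depth limits values near 1 CPM, where counting error is close to the spread.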
